A study of Homo sapiens with 9 samples.

Results

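Axon guidance ligands and receptors were examined in 3 cell lines derived from HEK293, a human line of embryonic kidney origin that expresses many neuronal genes. The genes were taken by symbol as the protein-coding ephrins and Eph receptors, semaphorins of classes 3 to 7, plexins, neuropilins, Slits, Robos, netrins, the UNC5 receptors, DCC and neogenin. The rule found 70 genes, 35 ligands and 35 receptors, among the 60648 genes of the count table, and 62 of them had enough counts to be tested. TC4-2A cells carry an inducible construct for a circular RNA that joins exons 2A, 2B, 3 and 4 from the spinal muscular atrophy genes SMN1 and SMN2, and TL4-2A cells carry one for a linear RNA of the same exons. T-REx cells are the control line and overexpress neither RNA. All 3 lines received doxycycline for 96 h in total, and 3 RNA-Seq libraries depleted of ribosomal RNA were made from each. The comparisons ask which transcripts differ in cells that overexpress the circular RNA, in cells that overexpress its linear counterpart, and between these lines.

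Axon guidance molecules steer the growth cone, the motile tip of a growing axon, by attraction or repulsion, and most also act on cell adhesion, migration and vessel growth outside the nervous system. Eph receptors are tyrosine kinases that bind ephrins on the neighbouring cell, and ephrins can signal back into the cell that carries them. Semaphorins act through plexins, with neuropilins as co-receptors for most secreted class 3 members. Slits are secreted ligands of the Robo receptors, and netrins attract axons through DCC or neogenin and repel them through UNC5 receptors. These signals converge on the actin cytoskeleton.

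The libraries held 16561680 to 21491977 counts, and the first and second principal components (38.9% and 27.2% of the variance) separated the 3 lines. All 9 markers reported for HEK293 cells passed a mean of 1 CPM (counts per 1000000 counts of the library, with library sizes scaled by TMM). Their summed level was 3740.6 to 3797.9 CPM in TC4-2A, 4613.6 to 4749.0 CPM in TL4-2A and 3491.4 to 3547.6 CPM in T-REx libraries. None of the markers of endothelium, blood cells or hepatocytes was high enough to be tested. Of 5 fibroblast markers COL1A1 and COL3A1 passed 1 CPM, of 5 markers of mature neurons SNAP25, RBFOX3 and GAD1, and of 3 glial markers MBP. The summed level of the neuronal list was 32.7 to 36.1 CPM in TC4-2A, 39.0 to 44 CPM in TL4-2A and 30.8 to 32.4 CPM in T-REx libraries, and that of the glial list 26.3 to 29.2, 18.4 to 19.7 and 22.8 to 24.0 CPM; their part in the results was not tested. The sources used here do not say if each library had its own culture or if a line is 1 clone. The p values therefore measure the spread between these libraries, and a difference between constructs and a difference between the lines that carry them cannot be told apart. In bulk RNA, fewer cells that express a gene and less RNA per cell cannot be told apart either.

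Every family was expressed. Per kilobase of exon (RPKM, CPM divided by the merged exon length), SLIT2 had the highest level, a mean of 61.0 RPKM over the 9 libraries, followed by the ephrin EFNB2 with 35.7 RPKM and ROBO1, the main Slit receptor here, with 25 RPKM. Neogenin (NEO1) had 24.0 RPKM, EFNA5 23.4 RPKM, PLXNB2 18.4 RPKM and EPHB4 17.4 RPKM. Each of the 4 families thus had a well expressed ligand or receptor, and 59 of the 70 genes had a mean of at least 1 CPM. DCC, the classical netrin receptor, had a single count in 9 libraries, and ROBO4, the endothelial Robo, had none. EPHA1, NTN5, PLXNB3, SEMA4A, SEMA5A and UNC5D were also too low to be tested, with at most 10 counts in any library.

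**Figure D1:**
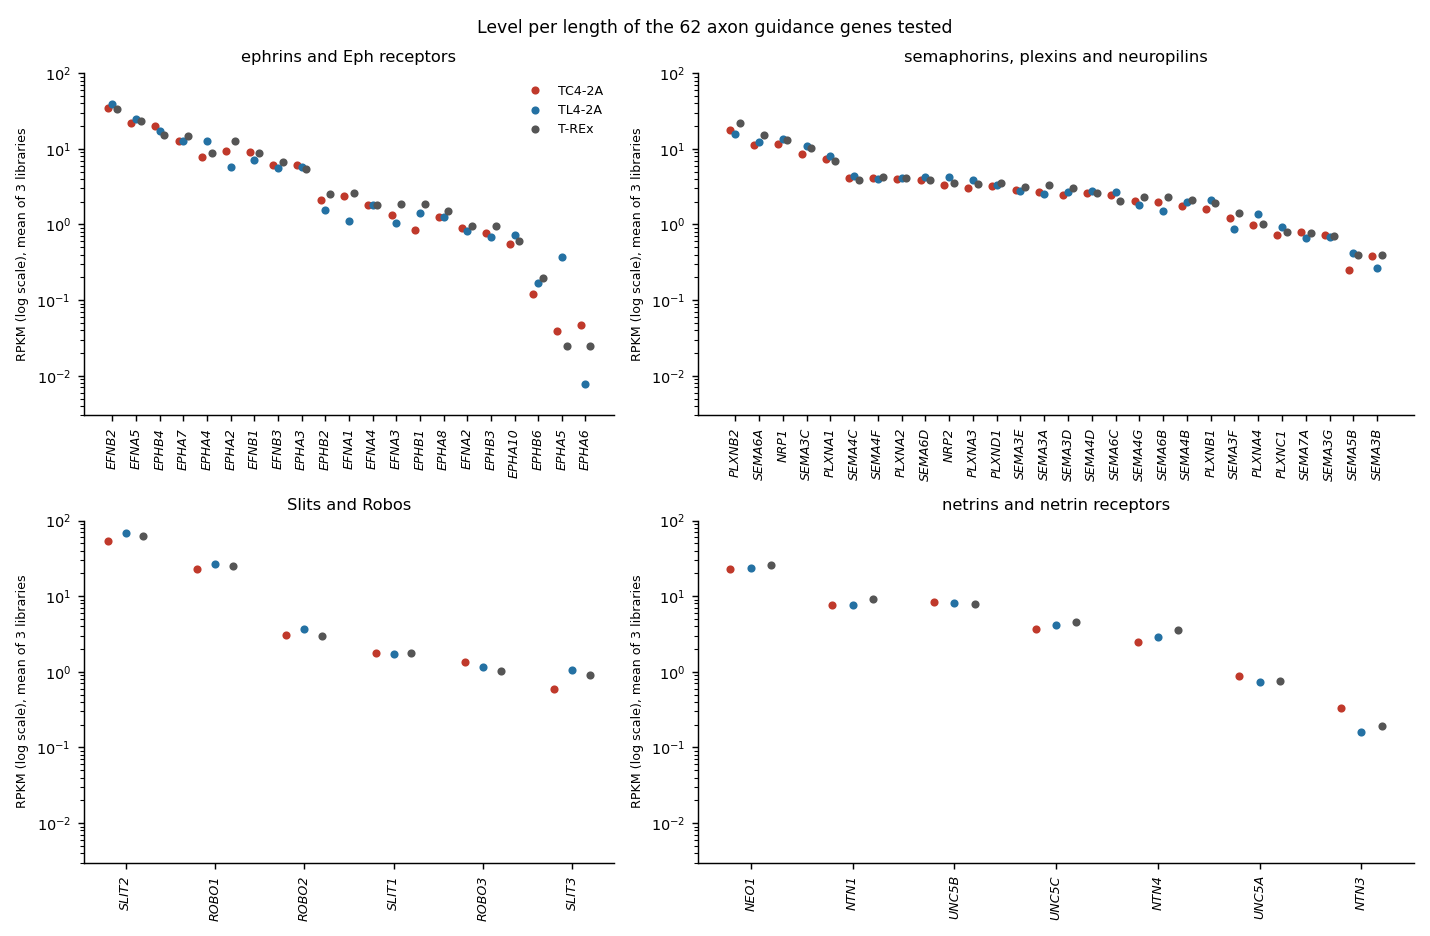
Mean level per kilobase of exon (RPKM, log axis) of the 62 tested genes in the 3 lines, each point the mean of 3 libraries, ordered by level within each family. SLIT2 stands highest at 52.9 RPKM in TC4-2A, 67.7 RPKM in TL4-2A and 62.6 RPKM in T-REx cells, and EPHA5 and EPHA6 are the lowest and the most spread between lines.

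The bases just before the transcription start are shown for the genes with the largest change, in either direction, in TL4-2A cells (EPHA5 and EFNA1, among genes with a mean of at least 1 CPM) and in TC4-2A cells (EPHB1). Each is the 250 bases before the RefSeq start on GRCh38.p14, 5′ to 3′ on the gene's strand, with GC boxes (GGGCGG, or CCGCCC on the other strand; overlapping copies joined) in capitals. EPHA5 is from chr4:65670490-65670739 on the minus strand, EFNA1 from chr1:155127626-155127875 on the plus strand and EPHB1 from chr3:134795010-134795259 on the plus strand.
EPHA5: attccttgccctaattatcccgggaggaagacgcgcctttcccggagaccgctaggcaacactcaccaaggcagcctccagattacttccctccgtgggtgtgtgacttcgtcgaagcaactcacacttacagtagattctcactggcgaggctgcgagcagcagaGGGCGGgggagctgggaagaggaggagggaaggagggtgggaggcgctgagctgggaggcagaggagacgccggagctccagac
EFNA1: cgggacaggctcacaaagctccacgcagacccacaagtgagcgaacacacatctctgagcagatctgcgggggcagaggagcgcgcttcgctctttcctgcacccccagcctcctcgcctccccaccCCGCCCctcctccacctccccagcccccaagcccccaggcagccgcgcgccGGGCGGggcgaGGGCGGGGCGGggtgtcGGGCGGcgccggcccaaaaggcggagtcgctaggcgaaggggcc
EPHB1: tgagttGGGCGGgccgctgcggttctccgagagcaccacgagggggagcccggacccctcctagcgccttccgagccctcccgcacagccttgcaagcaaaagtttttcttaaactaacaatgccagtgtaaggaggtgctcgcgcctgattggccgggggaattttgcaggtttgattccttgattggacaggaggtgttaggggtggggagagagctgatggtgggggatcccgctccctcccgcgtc
EFNA1 had 5 GC boxes, and EPHA5 and EPHB1 had 1 each. The RefSeq promoters used here held 60 genes of the set, and 44 of these (73.3%) had at least 1 GC box in these 250 bases. Of all 35116 promoters of the same length, which include those of noncoding genes, 42.6% did. The median number of CpG dinucleotides was 17 in the set and 11 in all promoters. The letters TATAAA, on either strand, occurred in 1 of the 60 (1.67%), against 10.7% of all promoters. These matches describe the letters only, and no binding was measured.

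In TC4-2A cells, axon guidance genes were lower far more often than higher. Compared with T-REx cells, 26 of the 62 tested genes (41.9%) were lower and 4 (6.45%) were higher at an adjusted p under 0.05, where 14.6% of all 19473 tested genes were lower and 14.2% higher. Among protein-coding genes alone the background was 18.5% lower and 17.4% higher. The median log2 fold change was -0.15 for the set and 0.004 for all genes. Both ligands (12 lower and 1 higher of 32) and receptors (14 lower and 3 higher of 30) had this excess of lower calls. The changes were small: 3 genes, EPHB1, SLIT3 and SEMA5B, fell by at least 1.5-fold and none rose by as much, where 3.46% and 1.65% of all genes did so. The tested genes of the set had a median of 23.8 CPM and all tested genes 14.6 CPM, and the part of this difference in level in the share called was not tested. Adjusted p values are those of the quasi-likelihood test of edgeR, with the Benjamini-Hochberg adjustment over all tested genes.

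The 4 genes higher in TC4-2A cells were EPHB4, EPHA3, ROBO3 and SEMA6C, and the last 3 are named because the count is small. EPHA3, an EphA receptor, had 40.4 ± 2.61 CPM in TC4-2A and 35.7 ± 0.979 CPM in T-REx cells (SD, n = 3 libraries each; log2 fold change 0.18 ± 0.05, SE; adjusted p = 0.0063). ROBO3, a Robo that in mammals does not bind Slits with high affinity and is required for commissural axons to cross the midline, had 9.39 ± 0.448 CPM in TC4-2A and 7.09 ± 0.521 CPM in T-REx cells (0.41 ± 0.12, adjusted p = 0.00633). The transmembrane semaphorin SEMA6C had 14.0 ± 0.66 CPM in TC4-2A and 11.7 ± 0.0731 CPM in T-REx cells (0.26 ± 0.08, adjusted p = 0.0112). Only 2 of the 4 calls were left without TC4-2A replicate 2, when EPHA3 had an adjusted p of 0.109 and SEMA6C of 0.0881, and the ROBO3 call was lost without T-REx replicate 2 (adjusted p = 0.0514).

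In TL4-2A cells the calls fell on both sides. Compared with T-REx cells, 23 of the 62 genes (37.1%) were lower and 15 (24.2%) higher, where 22.5% of all tested genes were lower and 21.9% higher (26.8% and 24.3% of protein-coding genes). The share of higher calls was thus near the background, and the share of lower calls above it. The median log2 fold change was -0.06 for the set and -0.001 for all genes. Lower calls were most frequent among ephrins and Eph receptors, with 11 lower and 4 higher of 21, whereas of 6 Slits and Robos 4 were higher and none was lower. At 1.5-fold or more, 7 genes fell (11.3%, against 6.46% of all genes) and EPHA5 alone rose (1.61%, against 4.83%). EPHA5 had enough counts to be tested only through the TL4-2A libraries, where it is high.

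TC4-2A and TL4-2A cells were also compared directly. Of the 62 genes 23 (37.1%) were lower in TC4-2A than in TL4-2A cells and 10 (16.1%) were higher, where 17.8% of all tested genes were lower and 17.6% higher. Receptors gave 14 of the lower calls and 5 of the higher calls among 30 tested, and ligands 9 and 5 among 32. The median log2 fold change over the set was -0.02. At 1.5-fold or more, 5 genes were lower in TC4-2A cells (8.06%, against 4.3% of all genes) and 4 were higher (6.45%, against 3.92%). EPHA5 is among the lower genes, and EPHA6 and NTN3 are among the higher ones. These genes had enough counts to be tested only through the line where they are high, so their part in these shares is no independent result.

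**Figure D2:**
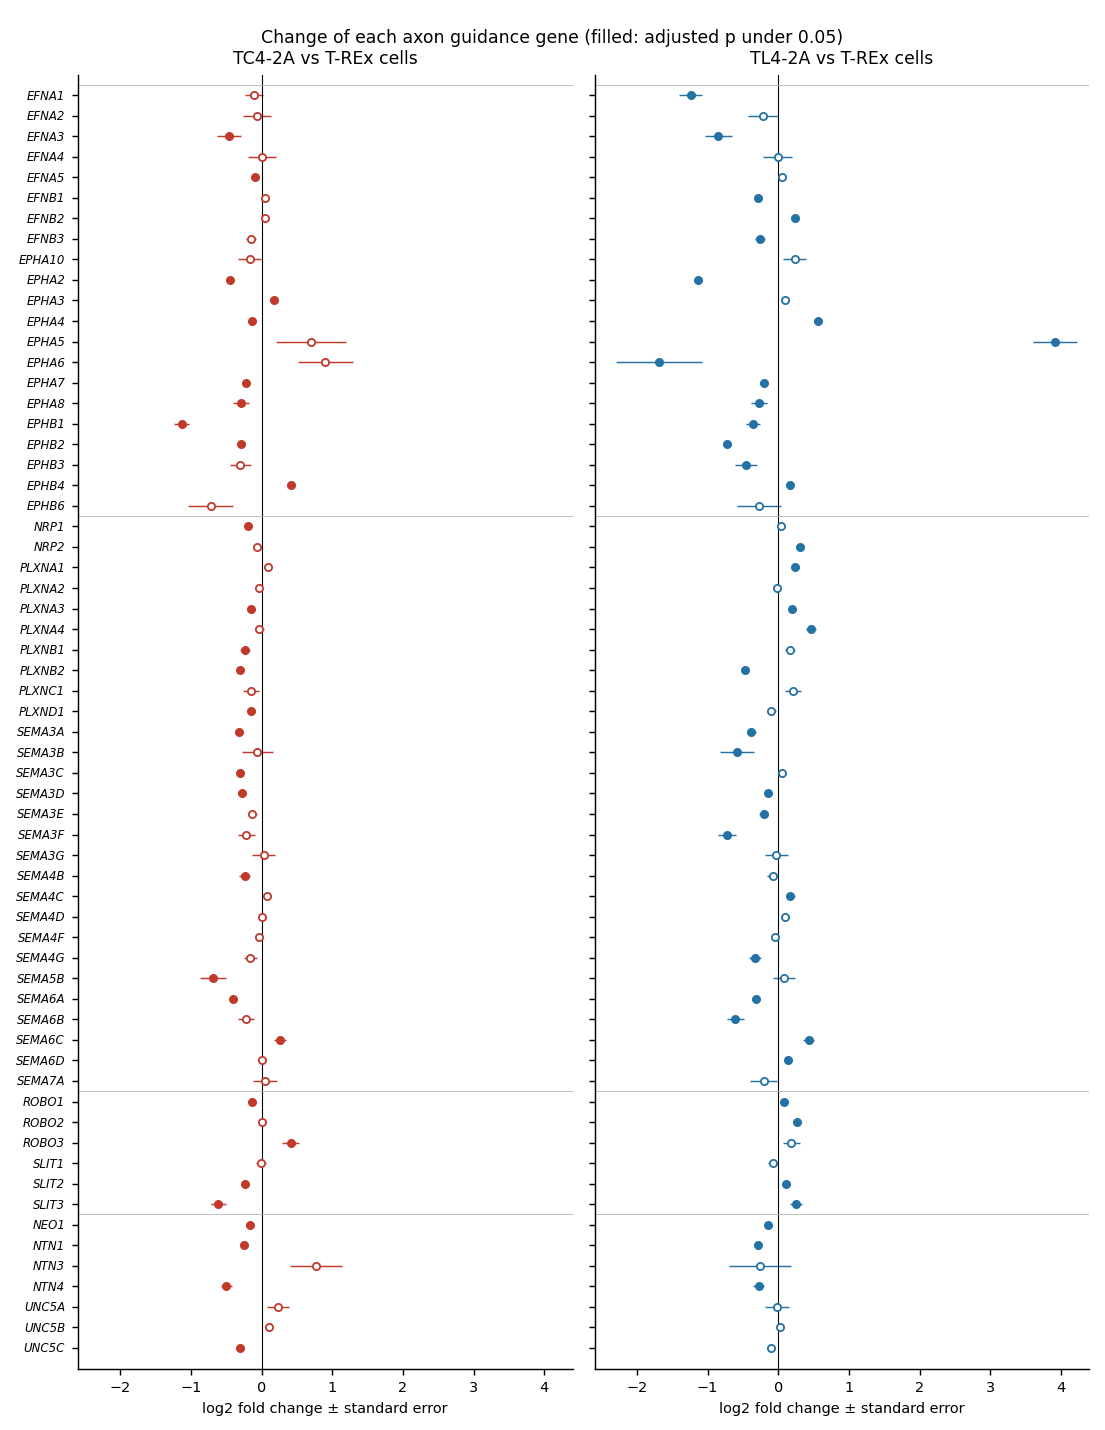
Log2 fold change with its standard error for the 62 tested genes in TC4-2A against T-REx cells (left) and TL4-2A against T-REx cells (right), by family from ephrins and Eph receptors at the top to netrins and their receptors at the bottom; filled points have an adjusted p under 0.05. Left, 26 filled points lie below 0 and 4 above; right, 23 lie below and 15 above, with EPHA5 far to the right at 3.91.

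Slits and Robos gave the plainest contrast between the engineered lines TC4-2A and TL4-2A. SLIT2 (chr4:20251905-20620561, plus strand; GRCh38, Gencode v44, as for all positions of genes here), a secreted repellent, had 576.0, 587.0 and 592 CPM in TC4-2A libraries, 757, 748 and 742 CPM in TL4-2A libraries, and 711, 682 and 686 CPM in T-REx libraries. No line overlapped another: SLIT2 was lowest in TC4-2A and highest in TL4-2A cells. The log2 fold change was -0.24 ± 0.03 in TC4-2A (adjusted p = 3.21e-09) and 0.11 ± 0.03 in TL4-2A cells (adjusted p = 0.000825), both against T-REx cells, and -0.36 ± 0.03 between TC4-2A and TL4-2A cells (adjusted p = 1.37e-13). SLIT3 (chr5:168661740-169301139, minus strand), with a mean of 0.854 RPKM, showed the same order with a wider gap. SLIT3 had 6.64, 9.02 and 9.56 CPM in TC4-2A libraries, 15.1, 15.1 and 15.6 CPM in TL4-2A libraries, and 13.5, 12.5 and 12.6 CPM in T-REx libraries. It fell in TC4-2A cells (-0.61 ± 0.10, adjusted p = 5.6e-06) and was lower there than in TL4-2A cells (-0.86 ± 0.10, adjusted p = 2.79e-09). Its rise in TL4-2A cells was small (0.25 ± 0.09, adjusted p = 0.0234) and was not called by DESeq2 (adjusted p = 0.0628) or without T-REx replicate 2 (0.0766), T-REx replicate 3 (0.0694) or TL4-2A replicate 3 (0.0689).

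The receptors followed the Slits in part. ROBO1 (chr3:78597239-79767998, minus strand) had 248, 258.0 and 255 CPM in TC4-2A libraries, 299, 286 and 302 CPM in TL4-2A libraries, and 284, 278 and 279 CPM in T-REx libraries. The lines did not overlap, although the differences were under 1.2-fold. ROBO1 fell in TC4-2A cells (-0.14 ± 0.03, adjusted p = 0.000107) and was lower there than in TL4-2A cells (-0.22 ± 0.03, adjusted p = 4.19e-08). Its higher level in TL4-2A than in T-REx cells (0.08 ± 0.03, adjusted p = 0.0252) was lost with no expression filter (adjusted p = 0.133) and without T-REx replicate 2 (0.0909), T-REx replicate 3 (0.0724), TL4-2A replicate 1 (0.0909) or TL4-2A replicate 3 (0.13). ROBO2 (chr3:75906695-77649964, plus strand), which lies beside ROBO1, had 51.4, 51.5 and 48.4 CPM in TC4-2A libraries, 59.1, 59.8 and 62.6 CPM in TL4-2A libraries, and 50.5, 48.2 and 51.5 CPM in T-REx libraries. Only TL4-2A cells stood apart, with a rise of 0.27 ± 0.05 (adjusted p = 1.19e-05). Summed over Slits, the level was 55.2 ± 0.832 RPKM in TC4-2A, 70.4 ± 0.793 RPKM in TL4-2A and 65.3 ± 1.49 RPKM in T-REx cells, and summed over Robos 27.3 ± 0.409, 31.5 ± 0.811 and 29.4 ± 0.394 RPKM in the same lines. SLIT1 was called in no comparison.

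Ephrins and Eph receptors carried the largest changes of the set. EPHA5 (chr4:65319563-65670495, minus strand), a receptor of ephrin-A ligands that is mainly expressed in the nervous system, was almost silent in TC4-2A and T-REx cells and present in TL4-2A cells. It had 0.4, 0.332 and 0.43 CPM in TC4-2A libraries, 3.69, 3.37 and 3.84 CPM in TL4-2A libraries, and 0.318, 0.0463 and 0.365 CPM in T-REx libraries. In raw counts these were 8, 7 and 8 in TC4-2A, 61, 63 and 63 in TL4-2A, and 6, 1 and 7 in T-REx libraries. All TL4-2A libraries lay above all others. The fitted change in TL4-2A against T-REx cells was 15.0-fold (log2 3.91 ± 0.31, adjusted p = 6.31e-13), and that between TC4-2A and TL4-2A cells -3.21 ± 0.28 (adjusted p = 7.09e-12), while the TC4-2A value of 0.70 ± 0.50 against T-REx cells did not pass the test (adjusted p = 0.325). Since EPHA5 passed the expression filter only through its TL4-2A counts, it had to differ between lines in order to be tested at all. Even in TL4-2A cells it made up 0.932% of the summed EphA level per kilobase. The antisense noncoding gene EPHA5-AS1 overlaps 5.4% of the exonic bases of EPHA5. The sources used here do not say if the counting used strand, so a part of antisense reads in these counts was not tested.

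EPHA6, another EphA receptor, lay under the 1 CPM set for the genes described in full and is named here after its values were seen. It had 18, 16 and 17 counts in TC4-2A libraries, 4, 0 and 3 counts in TL4-2A libraries, and 6, 6 and 15 counts in T-REx libraries. At these counts it was called lower in TL4-2A than in T-REx cells (-1.69 ± 0.61, adjusted p = 0.0223) and higher in TC4-2A than in TL4-2A cells (2.6 ± 0.53, adjusted p = 0.000145). Since EPHA6 passed the expression filter through its TC4-2A counts, the line where it is high, these p values come from a gene that had to differ. It also shares 11% of its exonic bases with a noncoding gene on the same strand.

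Among the well expressed EphA receptors, EPHA2 fell and EPHA4 rose in TL4-2A cells. EPHA2 (chr1:16124337-16156069, minus strand), an epithelial receptor of ephrin-A1, had 40.1, 39.7 and 37.2 CPM in TC4-2A libraries, 23.2, 24.9 and 24.3 CPM in TL4-2A libraries, and 53.6, 53.2 and 51.6 CPM in T-REx libraries. The 3 lines were fully apart, with T-REx cells highest. EPHA2 fell by 0.44 ± 0.05 on the log2 scale in TC4-2A cells (adjusted p = 1.59e-09) and by 1.13 ± 0.05 in TL4-2A cells (adjusted p = 8.22e-20), and was higher in TC4-2A than in TL4-2A cells (0.69 ± 0.05, adjusted p = 1.97e-13). EPHA4 (chr2:221418027-221574202, minus strand), which binds ephrins of both classes, had 57.2, 62.3 and 59.1 CPM in TC4-2A libraries, 99.8, 95.4 and 95.6 CPM in TL4-2A libraries, and 65.4, 68.0 and 63.7 CPM in T-REx libraries. It rose in TL4-2A cells (0.56 ± 0.04, adjusted p = 3.66e-13) and was lower in TC4-2A than in TL4-2A cells (-0.70 ± 0.04, adjusted p = 9.79e-16). Its small fall in TC4-2A cells (-0.14 ± 0.05, adjusted p = 0.0151) was lost without TC4-2A replicate 1 (0.0737) or T-REx replicate 2 (0.109).

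The make-up of the EphA receptors therefore differed between TL4-2A cells and the other lines, as a description of levels per kilobase. EPHA2 made up 24.8 ± 0.945% of the summed EphA level in TC4-2A, 14.7 ± 0.615% in TL4-2A and 29.1 ± 0.2% in T-REx cells, and EPHA4 20.7 ± 0.468%, 32.3 ± 0.817% and 19.8 ± 0.417% in the same lines. EPHA7 kept about the same share, 33.4 ± 0.791% in TC4-2A, 32.4 ± 0.971% in TL4-2A and 33.7 ± 0.886% in T-REx cells. EPHA3 had 16.1 ± 0.634%, 14.5 ± 0.327% and 12.4 ± 0.308%. The sum itself was 38.0 ± 0.949 RPKM in TC4-2A, 39.7 ± 0.409 RPKM in TL4-2A and 43.9 ± 0.665 RPKM in T-REx cells, so that both engineered lines lay below the control.

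**Figure D3:**
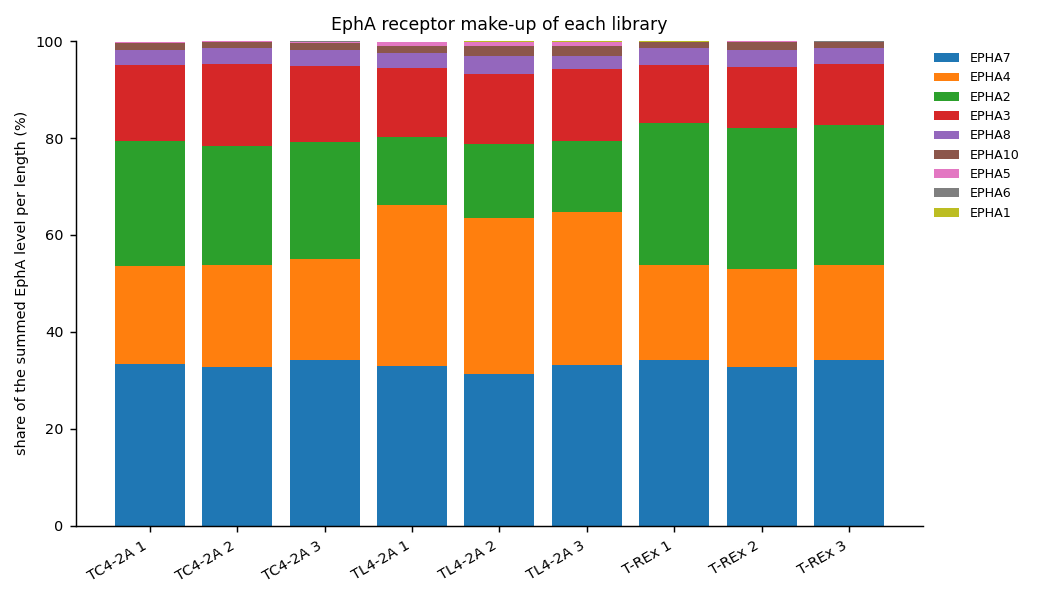
Share of each EphA receptor in the summed EphA level per kilobase of exon (%), 1 bar per library, for 3 libraries of each line. In the TL4-2A bars EPHA4 takes about 32.3% and EPHA2 about 14.7%, whereas EPHA2 takes 24.8% in TC4-2A and 29.1% in T-REx cells.

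EphB receptors moved in different directions. EPHB1 (chr3:134795260-135260467, plus strand), a receptor of ephrin-B ligands, had 5.0, 5.18 and 4.51 CPM in TC4-2A libraries, 8.96, 8.56 and 7.5 CPM in TL4-2A libraries, and 9.49, 11 and 11.7 CPM in T-REx libraries. It was the gene of the set that fell most in TC4-2A cells (-1.13 ± 0.11, adjusted p = 2e-10); it also fell in TL4-2A cells (-0.36 ± 0.10, adjusted p = 0.0041) and was lower in TC4-2A than in TL4-2A cells (-0.77 ± 0.12, adjusted p = 1.97e-06). EPHB2 (chr1:22710839-22921500, plus strand), with roles in synapse formation and in the sorting of gut epithelium, had 26.4, 26.5 and 25.3 CPM in TC4-2A libraries, 20.4, 17.2 and 20.2 CPM in TL4-2A libraries, and 32.8, 31.7 and 31.1 CPM in T-REx libraries. Here the order was the other one, with TL4-2A cells lowest (-0.73 ± 0.06, adjusted p = 8e-13) and TC4-2A cells between (-0.29 ± 0.05, adjusted p = 7.66e-05), and TC4-2A above TL4-2A cells (0.44 ± 0.06, adjusted p = 2.15e-07). EPHB4 (chr7:100802565-100827523, minus strand), the receptor of ephrin-B2 best known from veins, had 130.2, 127 and 132 CPM in TC4-2A libraries, 110.3, 113 and 105 CPM in TL4-2A libraries, and 97.8, 99.2 and 94.5 CPM in T-REx libraries. No line overlapped another, with TC4-2A cells highest. EPHB4 was the only gene of the set higher in all 3 comparisons: 0.42 ± 0.04 in TC4-2A (adjusted p = 1.47e-11) and 0.17 ± 0.04 in TL4-2A cells (adjusted p = 0.000361) against T-REx cells, and 0.25 ± 0.04 between TC4-2A and TL4-2A cells (adjusted p = 8.47e-07).

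Of the ephrins, the less expressed EFNA1 and EFNA3 changed most. EFNA1 (chr1:155127876-155134899, plus strand), a membrane-anchored ligand of EPHA2, had 4.85, 5.65 and 5.1 CPM in TC4-2A libraries, 2.18, 2.19 and 2.8 CPM in TL4-2A libraries, and 5.73, 4.96 and 6.26 CPM in T-REx libraries. All TL4-2A libraries lay below all others, and TC4-2A and T-REx libraries overlapped. EFNA1 fell in TL4-2A cells (-1.24 ± 0.16, adjusted p = 3.59e-08) and was higher in TC4-2A than in TL4-2A cells (1.13 ± 0.16, adjusted p = 3.48e-07), with -0.11 ± 0.13 in TC4-2A against T-REx cells (adjusted p = 0.573). EFNA1 and its receptor EPHA2 were thus both lower in TL4-2A cells. EFNA3 (chr1:155078837-155087538, plus strand), another ephrin-A, had 2.85, 2.94 and 2.1 CPM in TC4-2A libraries, 2.24, 1.5 and 2.38 CPM in TL4-2A libraries, and 3.29, 3.99 and 3.6 CPM in T-REx libraries. T-REx libraries lay above all others, while those of the engineered lines overlapped. The change was -0.85 ± 0.19 in TL4-2A cells (adjusted p = 0.000393) and -0.46 ± 0.17 in TC4-2A cells (adjusted p = 0.0445), but the TC4-2A call was lost with DESeq2 (0.131) and without TC4-2A replicate 3 (0.211), T-REx replicate 2 (0.178) or T-REx replicate 3 (0.0864). EFNA3 shares 43.9% of its exonic bases with the readthrough gene EFNA4-EFNA3 on the same strand, so its counts are uncertain.

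The abundant ephrins changed little. EFNB2 (chr13:106489745-106535662, minus strand), a transmembrane ligand of EPHB4, had 174, 171 and 174 CPM in TC4-2A libraries, 202, 190.0 and 198 CPM in TL4-2A libraries, and 169, 161 and 171 CPM in T-REx libraries. It was higher in TL4-2A cells alone (0.24 ± 0.03, adjusted p = 7.67e-08; 0.05 ± 0.03 in TC4-2A cells, adjusted p = 0.219). An antisense noncoding gene overlaps 36.4% of its exonic bases, and whether the counting used strand is not given in the sources used here. EFNA5 (chr5:107376894-107670937, minus strand), a repellent ephrin-A, had 127, 126 and 127 CPM in TC4-2A libraries, 145, 133 and 144 CPM in TL4-2A libraries, and 136, 135 and 136 CPM in T-REx libraries. It was lower in TC4-2A than in TL4-2A cells (-0.16 ± 0.03, adjusted p = 0.000442), whereas its fall against T-REx cells (-0.10 ± 0.03, adjusted p = 0.0207) was lost without TC4-2A replicate 2 (0.0663), T-REx replicate 2 (0.0581) or T-REx replicate 3 (0.0664).

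**Figure D4:**
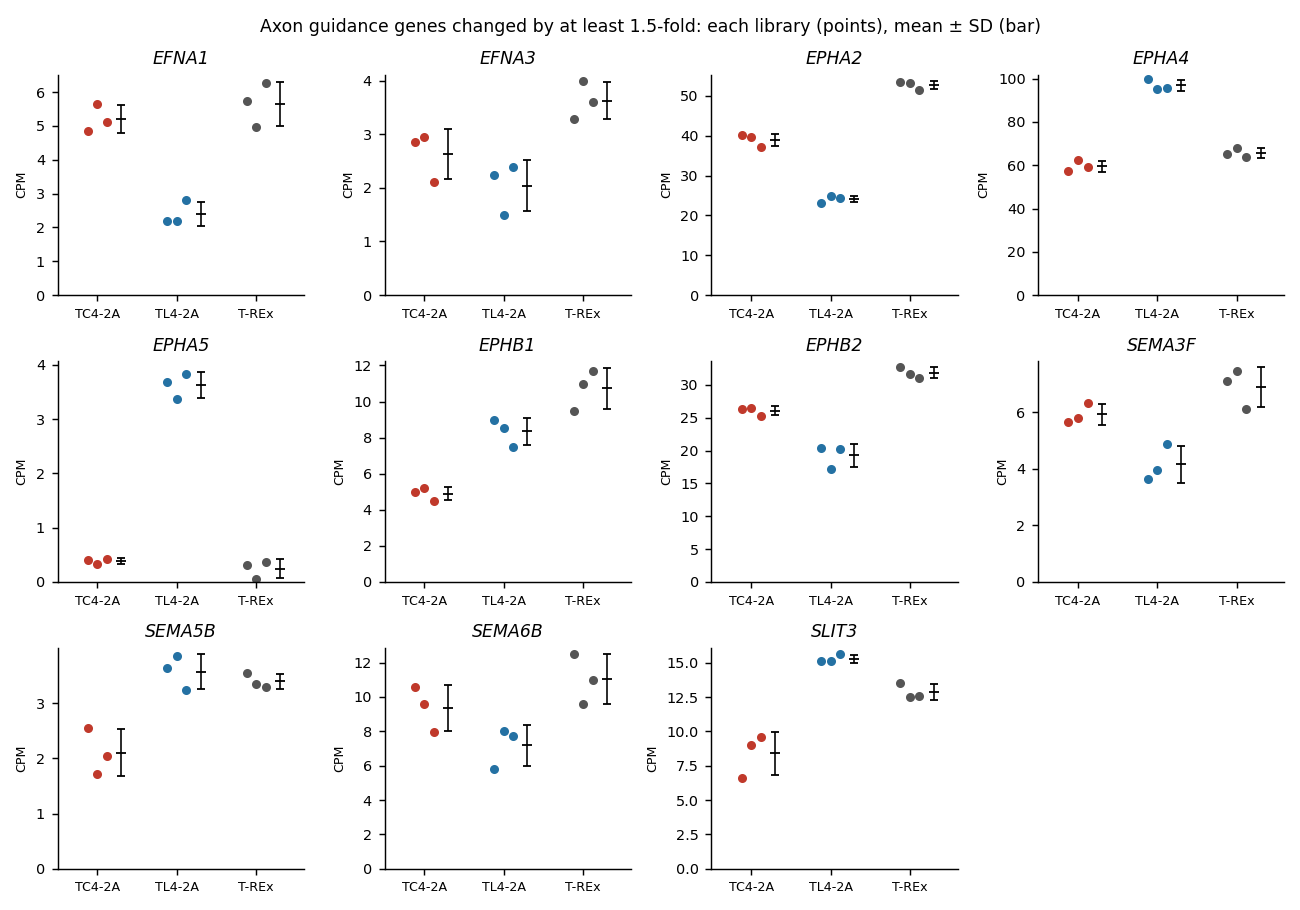
CPM in each library (points) with the mean and SD of 3 libraries (bar beside them) for the 11 genes with a mean of at least 1 CPM and a called change of at least 1.5-fold in some comparison, by line; every axis starts at 0. EPHA5 is near 0 in all but the TL4-2A libraries, at 3.37 to 3.84 CPM, and EPHB1, SEMA5B and SLIT3 are lowest in the TC4-2A libraries.

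Semaphorins and their receptors gave more lower than higher calls in TC4-2A cells. Of 28 tested genes of this family 11 were lower and 1 higher in TC4-2A cells, while 9 were lower and 7 higher in TL4-2A cells, both against T-REx cells. As shares these were 39.3% lower and 3.57% higher in TC4-2A cells, where 18.5% and 17.4% of protein-coding genes were (14.6% and 14.2% of all tested genes). In TL4-2A cells the shares were 32.1% and 25%, where 26.8% and 24.3% of protein-coding genes were called (22.5% and 21.9% of all tested genes). SEMA5B (chr3:122909082-123028605, minus strand), a transmembrane semaphorin with thrombospondin repeats, fell in TC4-2A cells, with 2.55, 1.71 and 2.04 CPM in TC4-2A libraries, 3.63, 3.85 and 3.23 CPM in TL4-2A libraries, and 3.55, 3.34 and 3.29 CPM in T-REx libraries. TC4-2A libraries lay below all others (-0.69 ± 0.18, adjusted p = 0.00231, against T-REx cells; -0.77 ± 0.18, adjusted p = 0.000674, against TL4-2A cells). SEMA3F (chr3:50155045-50189075, plus strand), a secreted semaphorin that binds neuropilin-2, had 5.65, 5.79 and 6.34 CPM in TC4-2A libraries, 3.63, 3.96 and 4.88 CPM in TL4-2A libraries, and 7.11, 7.46 and 6.1 CPM in T-REx libraries. It was TL4-2A cells that lay below all others for this gene (-0.73 ± 0.13, adjusted p = 2.08e-05, against T-REx cells), and TC4-2A cells did not pass the test (-0.22 ± 0.12, adjusted p = 0.174). SEMA6B (chr19:4542593-4581776, minus strand), a transmembrane ligand of class A plexins, had 10.6, 9.59 and 7.95 CPM in TC4-2A libraries, 5.81, 8.02 and 7.74 CPM in TL4-2A libraries, and 12.5, 9.59 and 11 CPM in T-REx libraries. SEMA6B fell in TL4-2A cells (-0.61 ± 0.12, adjusted p = 7.1e-05). The difference between TC4-2A and TL4-2A cells (0.38 ± 0.12, adjusted p = 0.0127) was lost without TC4-2A replicate 1 (0.104) or TL4-2A replicate 1 (0.126), and the value of -0.22 ± 0.11 in TC4-2A against T-REx cells (adjusted p = 0.134) passed without T-REx replicate 2 (adjusted p = 0.0492).

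The most expressed genes of the family fell in TC4-2A cells, and 2 of the 3 in TL4-2A cells too. SEMA6A (chr5:116443555-116574823, minus strand), a transmembrane ligand of plexins A2 and A4, had 121, 128 and 124 CPM in TC4-2A libraries, 134, 129.9 and 134 CPM in TL4-2A libraries, and 165, 163 and 169 CPM in T-REx libraries. T-REx cells lay above both engineered lines, which fell by 0.41 ± 0.03 in TC4-2A (adjusted p = 1.03e-12) and by 0.32 ± 0.03 in TL4-2A cells (adjusted p = 3.93e-10) on the log2 scale. The difference between TC4-2A and TL4-2A cells (-0.09 ± 0.03, adjusted p = 0.026) did not hold with DESeq2 (0.0515), with no expression filter (0.135), with only these 2 lines in the fit (0.0567), or without TC4-2A replicate 1 (0.127), TC4-2A replicate 3 (0.0761), TL4-2A replicate 1 (0.0981) or TL4-2A replicate 3 (0.0913). PLXNB2 (chr22:50274979-50307646, minus strand), a receptor of class 4 semaphorins, had 131, 128 and 126 CPM in TC4-2A libraries, 112, 119 and 113 CPM in TL4-2A libraries, and 159, 160.3 and 157 CPM in T-REx libraries. It fell by 0.30 ± 0.03 in TC4-2A (adjusted p = 2.64e-09) and by 0.47 ± 0.03 in TL4-2A cells (adjusted p = 5.23e-14). NRP1 (chr10:33177492-33336262, minus strand), co-receptor of class 3 semaphorins and of VEGF, had 130.4, 129 and 136 CPM in TC4-2A libraries, 155, 149 and 159 CPM in TL4-2A libraries, and 151, 149 and 151 CPM in T-REx libraries. NRP1 was lower in TC4-2A cells alone (-0.19 ± 0.03, adjusted p = 2.7e-05, against T-REx cells; -0.23 ± 0.03, adjusted p = 9.03e-07, against TL4-2A cells).

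Summed per kilobase, class 3 semaphorins had 18.8 ± 0.237 RPKM in TC4-2A, 20.6 ± 0.391 RPKM in TL4-2A and 22.4 ± 0.543 RPKM in T-REx cells. Semaphorins of classes 4 to 7 had 35.4 ± 0.52, 36.9 ± 0.24 and 39.7 ± 0.58 RPKM in these lines, and plexins 38.6 ± 0.285, 39.6 ± 0.775 and 43.5 ± 0.77 RPKM. In each of these sums T-REx cells were highest and TC4-2A cells lowest. Neuropilins had another order, with 14.8 ± 0.439 RPKM in TC4-2A, 17.7 ± 0.376 RPKM in TL4-2A and 16.5 ± 0.233 RPKM in T-REx cells.

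Among netrins and their receptors, NTN1, NTN4 and NEO1 were lower in both engineered lines, and UNC5C was called lower in TC4-2A cells alone (adjusted p = 2.64e-06, against 0.0501 in TL4-2A cells). These were 4 of the 7 tested genes in TC4-2A cells, where 14.6% of all genes were lower, and 3 in TL4-2A cells, where 22.5% were, and none of the 7 was higher in either line. NTN1 (chr17:9021510-9244000, plus strand), the founding netrin of vertebrates, had 50.3, 47.9 and 50.6 CPM in TC4-2A libraries, 46.4, 52.7 and 46.0 CPM in TL4-2A libraries, and 62.5, 56.4 and 58.6 CPM in T-REx libraries. NEO1 (chr15:73051710-73305205, plus strand), the receptor of netrins and of repulsive guidance molecules, had 183, 184 and 193 CPM in TC4-2A libraries, 192, 186 and 189.7 CPM in TL4-2A libraries, and 207, 216 and 204 CPM in T-REx libraries. For both genes T-REx libraries lay above all others and the engineered lines overlapped. NTN1 fell by 0.25 ± 0.05 in TC4-2A (adjusted p = 0.000195) and by 0.29 ± 0.05 in TL4-2A cells (adjusted p = 2.61e-05), and NEO1 by 0.16 ± 0.03 (adjusted p = 4.48e-05) and by 0.14 ± 0.03 (adjusted p = 0.000197) in the same lines. UNC5B (chr10:71212570-71302864, plus strand), a repulsive netrin receptor of vessels and axons, had 58.0, 60.4 and 55.2 CPM in TC4-2A libraries, 57.2, 56.5 and 50.7 CPM in TL4-2A libraries, and 54.5, 53.5 and 53.1 CPM in T-REx libraries. It was called in no comparison (0.11 ± 0.05 in TC4-2A against T-REx cells, adjusted p = 0.0954), except for a value of 0.14 in TC4-2A cells without TC4-2A replicate 3 (adjusted p = 0.0499).

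Read over the 3 comparisons, the tested genes fell into few patterns. In TC4-2A and TL4-2A cells alike 13 genes were lower than in T-REx cells, among them EPHA2, EPHB1, EPHB2, PLXNB2, SEMA6A, NTN1 and NEO1, and EPHB4 and SEMA6C were higher in both. The 2 comparisons share the T-REx libraries, so these counts are not independent of each other. The share of all tested genes with each pattern was not counted. The pattern counts here therefore describe the set and do not show that any pattern is more frequent in it. In 5 genes, EPHA4, PLXNA3, ROBO1, SLIT2 and SLIT3, the level was below that of T-REx cells in TC4-2A cells but above it in TL4-2A cells. Only SLIT2 had this pattern under every alternative tried: leaving out T-REx replicate 2 left PLXNA3 and SLIT2, leaving out T-REx replicate 3 left EPHA4 and SLIT2, and 3 of the 5 genes were left with DESeq2, with no expression filter, without TC4-2A replicate 1 or without TL4-2A replicate 3. No gene of the set had the opposite pattern. The 5 genes EFNA1, EFNB1, EPHA6, SEMA3F and SEMA6B were lower in TL4-2A cells than in both other lines, with no call between these. In no comparison were 11 genes called: EFNA2, EFNA4, EPHB6, PLXNA2, SEMA3G, SEMA4D, SEMA4F, SEMA7A, SLIT1, UNC5A and UNC5B.

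Some of these genes lay in stretches of the chromosome whose genes moved together. For each gene the median log2 fold change of its 20 nearest tested neighbours, 10 on each side, was taken. In TL4-2A against T-REx cells 7 of the 62 genes (11.3%) had a neighbour median beyond 0.25 in size, where 10.8% of all genes did, and in TC4-2A against T-REx cells 4 (6.5%), where 5.27% did. The fall of EPHA2 in TL4-2A cells went with a neighbour median of -0.48, and 15 of its 20 neighbours were lower and none higher. EPHB2 and EPHA8, which lie near each other on chromosome 1, had neighbour medians of -0.53 and -0.59. EPHA4 had 0.53, with 13 neighbours higher and none lower, and the neuropilin NRP2, also on chromosome 2, had 0.48. The rise of EPHA4, 0.56, was thus about that of its neighbours, whereas EPHA2 fell by 1.13 among neighbours at -0.48. In TC4-2A cells EPHB4, at 0.42, had a neighbour median of 0.38, with 15 neighbours higher and none lower. Of the 4 genes with such neighbours there, EPHB4 alone was called. EPHB6 had -0.72 among neighbours at 0.49, PLXNA4 -0.03 among 0.33 and NTN3 0.77 among 0.28. Of the 7 genes for TL4-2A, 5 were called in the direction of their neighbours. EFNA4 (-0.01 among -0.33) and NTN3 (-0.26 among 0.3) were not called. Own values and neighbour medians correlated weakly over the set, with r = 0.14 for TC4-2A and 0.22 for TL4-2A (0.22 and 0.29 over all genes).

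Several other genes with changes of at least 1.5-fold lay among neighbours that moved little. EPHA5 had a neighbour median of -0.07 in TL4-2A cells, and in TC4-2A cells EPHB1 had -0.06, SLIT3 -0.05 and SEMA5B -0.09. SEMA3F had 0.05 and SEMA6B 0.16 in TL4-2A cells, against their own falls of 0.73 and 0.61. EFNA1 and EFNA3, which lie close together on chromosome 1, did not, with neighbour medians of -0.24 and -0.25 in TL4-2A cells and 8 and 7 of 20 neighbours lower. Of the 58 tested genes whose neighbours were within 0.25 of 0 in TC4-2A against T-REx cells, 3 were higher and 26 lower. In TL4-2A against T-REx cells 13 were higher and 20 lower of 55 such genes. The share called among all tested genes outside such stretches was not counted, so no background stands beside these counts. What moves these stretches was not tested.

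**Figure D5:**
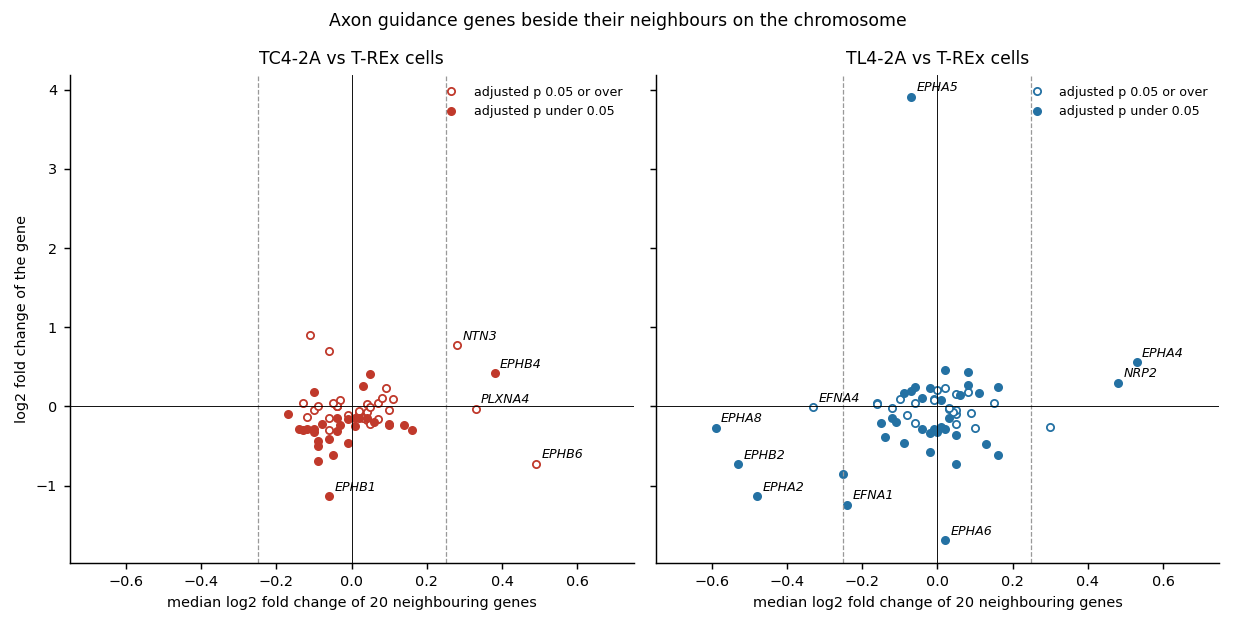
Log2 fold change of each of the 62 tested genes against the median log2 fold change of its 20 neighbouring genes, in TC4-2A against T-REx cells (left) and TL4-2A against T-REx cells (right); filled points have an adjusted p under 0.05 and dashed lines mark -0.25 and 0.25. EPHA2, EPHB2 and EPHA8 lie left of -0.25 and EPHA4 and NRP2 right of 0.25 in TL4-2A cells, while EPHA5 in TL4-2A and EPHB1 in TC4-2A cells lie near 0 on the horizontal axis.

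Genes that act beside or below the guidance receptors were counted on a list of 106 partners and effectors, of which 99 were tested. The list was written with earlier results of these data known, so its counts are no independent result. Against T-REx cells, TC4-2A cells had 17 higher and 27 lower calls among these 99 genes (median log2 fold change -0.03). There 14.2% of all tested genes were higher and 14.6% lower (17.4% and 18.5% of protein-coding genes). TL4-2A cells had 27 higher and 30 lower calls among the 99 (median 0.00). There 21.9% of all tested genes were higher and 22.5% lower (24.3% and 26.8% of protein-coding genes), so the TL4-2A counts lay near the protein-coding shares. The 19 Slit and Robo effectors gave 2 higher and 6 lower calls in TC4-2A cells and 9 higher and 2 lower calls in TL4-2A cells. Between TC4-2A and TL4-2A cells they gave 10 lower calls and no higher one. In that comparison 17.8% of all tested genes were lower and 17.6% higher (21.1% and 21.5% of protein-coding genes). The other lists, for Eph receptors (18 tested), semaphorins and plexins (22), netrins and neogenin (17) and the actin regulators of the growth cone (23), had medians between -0.08 and 0.05 in every comparison.

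NELL2, a secreted ligand of ROBO3, had the smallest p of the list in TC4-2A cells. It had 36.1, 36.0 and 36.8 CPM in TC4-2A libraries, 110.3, 109 and 110.4 CPM in TL4-2A libraries, and 92.8, 86.9 and 92.3 CPM in T-REx libraries (-1.32 ± 0.04 in TC4-2A against T-REx cells, adjusted p = 9.17e-24; -1.60 ± 0.04 against TL4-2A cells, adjusted p = 9.74e-27). NELL2 was thus lower, and its receptor ROBO3 higher, in TC4-2A than in T-REx cells. The ROBO3 call was lost without T-REx replicate 2, as given above. Between TC4-2A and TL4-2A cells ROBO3 was not called (0.23 ± 0.12, adjusted p = 0.129, edgeR). BASP1, a membrane protein of growth cones, fell to 115 ± 3.49 CPM in TC4-2A cells, against 198 ± 1.86 CPM in T-REx cells. SHTN1, which links actin flow to adhesion in growth cones, fell to 89.6 ± 1.53 CPM in TC4-2A cells, against 149.9 ± 2.87 CPM in T-REx cells. CELSR3, an atypical cadherin needed for long axon tracts, was higher, with 40.2 ± 3.65 CPM in TC4-2A and 18.4 ± 0.976 CPM in T-REx cells. Adjusted p values were 1.82e-20 for BASP1, 1.81e-19 for SHTN1 and 7.98e-17 for CELSR3. The paper had already reported these changes of BASP1, SHTN1 and CELSR3 from the same RNA-Seq data and by qPCR.

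In TL4-2A cells the 4 effectors with the smallest p were FARP2, ROCK2, CDC42 and MET. FARP2, a Rac activator recruited by class A plexins, rose to 118 ± 3.66 CPM in TL4-2A cells, against 74.0 ± 0.528 CPM in T-REx cells (0.67 ± 0.04, adjusted p = 2.2e-16). ROCK2, a kinase that acts on the actin cytoskeleton, fell to 102 ± 10 CPM in TL4-2A cells, against 162 ± 0.423 CPM in T-REx cells (-0.67 ± 0.04, adjusted p = 8.78e-16). CDC42, a small GTPase of cell polarity, fell to 177 ± 7.01 CPM, against 238 ± 7.21 CPM (-0.43 ± 0.03, adjusted p = 5.65e-14), and MET, a receptor tyrosine kinase that associates with plexin-B1, to 148 ± 1.91 CPM, against 191 ± 3.07 CPM (-0.37 ± 0.03, adjusted p = 5.96e-13), in the same lines. Directly between the engineered lines, DOCK1, a Rac activator of netrin signalling, was also lower in TC4-2A cells, with 65.4 ± 1.63 CPM in TC4-2A and 124.9 ± 3.68 CPM in TL4-2A cells (-0.93 ± 0.04, adjusted p = 2.74e-20), as were SHTN1 (-0.66 ± 0.03, adjusted p = 6.17e-18) and BASP1 (-0.63 ± 0.03, adjusted p = 9.02e-18). The neighbours of these effectors were not examined, so changes of whole stretches were not separated from changes of single genes. SHTN1 and DOCK1 both lie on chromosome 10. The paper places SHTN1 in a region of that chromosome enriched for genes lower in TC4-2A cells.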

How the data were processed

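RNA was sequenced from 3 libraries of each of the lines TC4-2A, TL4-2A and T-REx. The authors depleted ribosomal RNA, made directional libraries, mapped reads to GRCh38 with HISAT2 and counted reads per gene with featureCounts of Subread (submitters' processing notes); the sources used here do not give versions, the strand option or the handling of multiply mapped reads. The deposited values are raw counts per gene. The authors' own DESeq2 fold changes and p values were not used.

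In all 60648 lines of counts were used, and 3 damaged lines were left out. Names, positions and exon lengths came from Gencode v44 (99.69% of IDs matched). Counts were filtered with filterByExpr, scaled by TMM and fitted with edgeR 4.0.16 (R 4.3.3) in 1 quasi-likelihood model of all 9 libraries with a term per line; tests were 2-sided, and p values were adjusted by Benjamini-Hochberg over 19473 genes and called under 0.05. The SE of a log2 fold change is its size divided by the square root of F. Library totals of 16561680 to 21491977 counts set the precision. The script was tested on simulated data. DESeq2 1.42.0, other scaling and filters, a replicate block and leaving out each library were alternatives. Python 3.11.15 with pandas 2.3.3 and numpy 2.4.6 was used for summaries, and matplotlib 3.10.9 for plots.

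Genes given in every library were those with a mean of at least 1 CPM and a called change of at least 1.5-fold, and the 3 of highest RPKM in each of 4 families, 23 in all; of the effectors, the 4 with the smallest p per comparison. The genes and lists were chosen with earlier results of these data known. Promoters came from RefSeq (GRCh38.p14).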

Additional observations from a re-analysis of the deposited data

How the results depend on the processing

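Over the alternatives tried for the 23 genes given in every library (DESeq2, a fit of only the 2 lines compared, a filter of 10 counts in every library or no filter, RLE scaling, a replicate block, and each library left out), 1002 of 1031 values kept their side of the threshold, 27 lost a call and 2 gained one. No called value changed sign, and 5 values called in neither fit did, such as ROBO2 in TC4-2A against T-REx cells (0.01, and -0.02 without T-REx replicate 2); 23 of the 29 came from leaving out 1 of the 9 libraries. The number of axon guidance genes higher in TC4-2A than in T-REx cells was 4, and 2 without TC4-2A replicate 2; with each library left out in turn it ranged from 2 to 5. The other 95 alternative counts of these genes, and all 90 of the effectors, stayed within 1.5 times. With each library left out, 22 to 26 genes were lower in TC4-2A than in T-REx cells, 13 to 16 higher and 18 to 24 lower in TL4-2A than in T-REx cells, and 8 to 10 higher and 19 to 23 lower in TC4-2A than in TL4-2A cells. Same-numbered libraries did not deviate together (correlations of their deviations from the line means -0.029 to 0.03), so the numbers do not pair them; with a replicate block 4 genes were higher and 26 lower in TC4-2A, 15 higher and 24 lower in TL4-2A against T-REx cells, and 9 higher and 22 lower in TC4-2A against TL4-2A cells, and none of the 23 genes changed its call. DESeq2 gave 3 higher and 21 lower, 12 higher and 19 lower, and 9 higher and 19 lower in the same order. Depth limits EPHA5, EPHA6, NTN3 and EPHB6, the tested genes with under 10 counts in some library.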

Other observations

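NTN3, a netrin expressed below 1 CPM, was the remaining gene with a called change of at least 1.5-fold, and is named after its values were seen. It had 18, 13 and 12 counts in TC4-2A libraries, 7, 5 and 6 counts in TL4-2A libraries, and 6, 12 and 7 counts in T-REx libraries, with a value of 1.03 ± 0.39 in TC4-2A against TL4-2A cells (adjusted p = 0.0388, edgeR). NTN3 passed the expression filter through its TC4-2A counts, so that it had to differ to be tested. The class 3 genes SEMA3A, SEMA3C, SEMA3D and SEMA3E lie within a few megabases on chromosome 7, and are named for that position after their values were seen. SEMA3A (-0.32 ± 0.06), SEMA3C (-0.30 ± 0.05) and SEMA3D (-0.28 ± 0.06) fell in TC4-2A cells, and SEMA3A (-0.38 ± 0.06), SEMA3D (-0.15 ± 0.06) and SEMA3E (-0.21 ± 0.06) in TL4-2A cells, with neighbour medians from -0.15 to -0.10. SEMA3C differed between the engineered lines, with 51.5 ± 0.958 CPM in TC4-2A and 65.7 ± 3.48 CPM in TL4-2A cells (adjusted p = 2.98e-07).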
